A study of Mus musculus with 8 samples.

Results

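Transcripts of the nuclear receptor corepressor complex (Ncor1, Hdac3, Tbl1x, Tbl1xr1 and Gps2) and of the coactivators that take its place on the liganded receptor (Ncoa1, Ncoa2, Ncoa3 and Med1) were followed in cultured mouse cerebellar neurons with and without T3, the active thyroid hormone. A probe-set was taken as a member when its only gene symbol in the array annotation was 1 of these 9 names, and no measured value entered the choice. By this rule 8 of the 9 genes had 1 or more probe-sets, out of 18193 genes in the whole series, and Ncor1 is not analysed here. The 8 genes were read by 27 probe-sets, of which 19 passed a filter on mean signal that kept 18015 of 45037 probe-sets and 10194 genes. Each of the 8 genes had at least 1 probe-set among those kept.

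The cells were primary cultures of wild-type mouse cerebella, pooled and dissociated mechanically, from pups whose age is P4-P7 in the labels and P1-P4 in the methods. All cultures were kept without serum for 48 h, and T3 (0.1 µM) was then added for 6, 16, 24 or 48 h. Control cultures had the same medium changes without added T3. Each of the 8 conditions was 1 culture on 1 whole-genome array, and the T3 and untreated cultures of a time point came from the same cell batch. No condition had a replicate, so the 4 time points stood in for replicates of the T3 comparison. The methods do not state whether time points shared a batch of cells, and hours of culture and cell preparation cannot be told apart.

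Without hormone, thyroid hormone receptors sit on their response elements together with NCOR proteins, whose complex holds the histone deacetylase HDAC3, the WD40 proteins TBL1X and TBLR1 (encoded by Tbl1xr1) and the small subunit GPS2. Binding of T3 changes the receptor surface, so that this complex leaves and proteins with LXXLL motifs bind: the p160 coactivators NCOA1, NCOA2 and NCOA3, which bring histone acetyltransferases, and MED1, the Mediator subunit through which nuclear receptors reach RNA polymerase II. In the developing cerebellum, where granule cell precursors multiply and migrate after birth, the balance between these complexes sets the activity of unliganded and liganded receptors.

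The values were MAS 5 signals, linear intensities that the authors had scaled to the same trimmed mean on every array (100.1 to 100.9), and the median signal was 14.8 to 17.7. Klf9, a zinc finger transcription factor, had signals of 3099.5, 2736.9, 3131.3 and 2267.6 after 6, 16, 24 and 48 h of T3, against 1220, 1508.2, 1235.2 and 1497.6 in the untreated cultures, and Dbp, a PAR bZIP transcription factor, was likewise higher with T3 in 4 of 4 pairs (mean log2 difference 1.33). Both are among the genes that the study selected on these arrays. It also measured both by quantitative RT-PCR, in these cultures and an independent set, and lists both among the genes whose regulation by T3 was reported earlier. On the arrays neither passed correction over all probe-sets (adjusted p = 0.306 for Klf9 and 0.154 for Dbp, limma). Neuronal markers were present, while Gabra6 of mature granule cells lay below the filter, as did Gfap, Olig2, Sox10, Gad2, Slc32a1, Pvalb and Aif1 among the markers of other cells. The untreated 24 h array stood apart. Its summed signal was 8721 for 8 astrocyte and Bergmann glia genes and 1789.6 for 5 oligodendrocyte lineage genes, against 2851.5 to 5009.4 and 670.4 to 976.9 on the other 7 arrays. Aqp4, Gfap, Slc1a3, Slc1a2, Aldh1l1, Fabp7, Olig1 and Mbp were each highest there. Other genes of these lists were not: Gja1 (2594.7), Gdf10 (98.9), Olig2 (23.5) and Sox10 (16.1) lay within the range of the other arrays. Pdgfra, at 242.4, was at its lowest there. Summed signals of 7 meningeal and vessel genes ranged from 855.7 to 8268 and those of 5 microglial genes from 98.6 to 1211.7 over the 8 arrays.

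Promoter sequences of Gps2, Ncoa1 and Med1 are shown because the signals of their brightest probe-sets ran together over the 8 arrays. Ncoa2 ran with them too, but no window of it was searched. Each window runs from 250 bases before the transcript start that the sequence table uses to 50 after it and is printed 5′ to 3′ on the strand of the gene, from RefSeq in GRCm38.p6 at chr11:69913770-69914069 (+ strand), chr12:4477133-4477432 (- strand) and chr11:98192857-98193156 (- strand). That start lies 40 bases downstream of the outermost annotated start of the gene for Gps2, 24 for Ncoa1 and 407 for Med1, so that the Med1 window lies wholly inside the gene. Capitals mark the GC box GGGCGG and the CCAAT box, searched on both strands.
Gps2: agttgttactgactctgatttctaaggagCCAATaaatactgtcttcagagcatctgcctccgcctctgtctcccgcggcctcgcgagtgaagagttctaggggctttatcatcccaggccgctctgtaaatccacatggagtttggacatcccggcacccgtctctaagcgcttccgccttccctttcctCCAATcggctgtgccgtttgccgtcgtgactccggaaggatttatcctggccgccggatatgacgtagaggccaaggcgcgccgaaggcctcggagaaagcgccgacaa
Ncoa1: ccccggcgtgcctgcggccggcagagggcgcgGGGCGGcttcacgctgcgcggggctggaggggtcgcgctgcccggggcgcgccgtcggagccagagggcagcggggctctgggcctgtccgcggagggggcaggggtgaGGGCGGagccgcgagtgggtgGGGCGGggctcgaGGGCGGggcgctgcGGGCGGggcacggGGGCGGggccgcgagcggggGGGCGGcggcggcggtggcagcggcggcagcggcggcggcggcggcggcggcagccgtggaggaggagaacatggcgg
Med1: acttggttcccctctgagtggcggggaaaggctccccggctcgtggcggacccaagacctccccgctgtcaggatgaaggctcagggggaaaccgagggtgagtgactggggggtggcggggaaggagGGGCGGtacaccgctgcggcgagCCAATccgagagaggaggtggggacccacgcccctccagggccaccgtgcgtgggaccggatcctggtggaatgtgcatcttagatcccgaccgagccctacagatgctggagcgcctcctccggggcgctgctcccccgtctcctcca
The Ncoa1 window held 7 GC boxes and 0 CCAAT boxes, that of Gps2 held 0 and 2, and that of Med1 held 1 of each. Among all 32851 promoter windows of this length 35.7% held a GC box and 37.4% a CCAAT box. The GC content was 56.7% for Gps2, 84.7% for Ncoa1 and 68.3% for Med1, against a median of 52.7% over all windows. The receptor half-site AGGTCA was found 0 times in these 3 windows and in those of Tbl1x and Tbl1xr1, the other 2 members searched. Windows of Tbl1x and Tbl1xr1 also lie inside their genes (starts 1678 and 399 bases downstream), and windows of Hdac3, Ncoa2 and Ncoa3 were not searched. Of all windows 16.3% held the half-site. Its direct repeat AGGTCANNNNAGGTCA was found 0 times in the 5 windows and in 0.0152% of all windows. A match is a run of letters and not a measured site.

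None of these co-regulator transcripts differed between T3 and untreated cultures past the test. Of the 19 member probe-sets 0 had an adjusted p under 0.05 (limma with the time point as a block, Benjamini-Hochberg adjustment), and 0% of all 18015 probe-sets did. Without the 24 h pair 0 members and 2 of all probe-sets passed. At an unadjusted p under 0.05 there was 1 member probe-set, of Med1, against 5.47% of all probe-sets. The mean log2 difference, T3 over untreated, of the brightest probe-set of each gene lay between -0.14 for Tbl1x and 0.19 for Gps2. Their 95% intervals, not adjusted for the number of genes, reached down to 0.750-fold (Tbl1x) and up to 1.47-fold (Ncoa3). They are not limits of detection, since Klf9 at a mean of 2.05-fold and Dbp at 2.52-fold did not pass the test either. Without the 24 h pair the mean log2 differences were 0.10 for Hdac3, -0.24 for Tbl1x, 0.02 for Tbl1xr1, 0.11 for Gps2, -0.23 for Ncoa1, -0.12 for Ncoa2, -0.00 for Ncoa3 and -0.06 for Med1, with adjusted p from 0.689 to 0.999. Over the 19 probe-sets the median difference was -0.06 and the median size 0.14, against 0.01 and 0.12 over all probe-sets tested. T3 was higher in 4 of 4 pairs for 2 member probe-sets (Gps2 and 1 of Med1) and lower in 4 of 4 pairs for 3 (1 of Tbl1xr1 and 2 of Med1), against 8.25% and 6.82% of all probe-sets. A T3 effect that moved with the hours was tested on the 4 pair differences, and 0 member probe-sets and 0% of all probe-sets passed. At an unadjusted p under 0.05 that fit gave 0 members and 245 of all probe-sets.

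**Figure D1:**
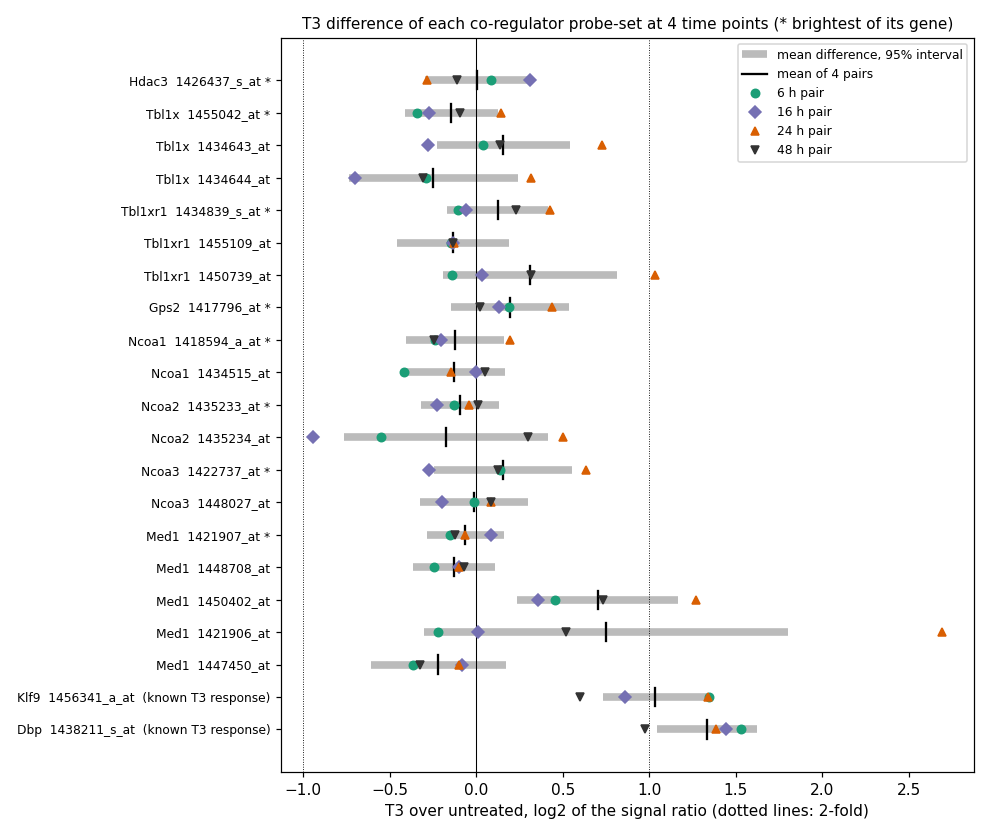
Log2 of the signal ratio, T3 over untreated, for the 19 member probe-sets (x axis, 1 symbol per time point), with the mean of 4 pairs as a black line and its 95% interval as a grey bar. The intervals of all member probe-sets except Med1 1450402_at include 0, and the symbols farthest to the right, at 24 h, are those of Med1 and Tbl1xr1, while Klf9 and Dbp lie between 0.60 and 1.53.

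Hdac3, the deacetylase of the complex, had signals of 279.9, 306.3, 278.6 and 296.7 after 6, 16, 24 and 48 h of T3, against 263.8, 247, 339 and 320 in the untreated cultures (1426437_s_at). T3 cultures were higher at 6 and 16 h and lower at 24 and 48 h, and the values of both groups overlapped. The mean ratio was 1.00-fold with a 95% interval of 0.814 to 1.23 (log2 0.00 ± 0.13, SE, n = 4 pairs; adjusted p = 0.999, limma). Probe-sets ending in _s_at can bind more than 1 transcript, so this signal and that of Tbl1xr1 1434839_s_at may not come from 1 gene alone.

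Tbl1x and Tbl1xr1 encode related WD40 proteins that hold the complex on histones and take part in its removal when hormone binds. Tbl1x (1455042_at) gave 300.3, 310.8, 386.2 and 390.8 with T3, against 381.7, 376.1, 350.1 and 418 untreated. T3 was lower at 6, 16 and 48 h and higher at 24 h, and the mean ratio was 0.905-fold (95% interval 0.750 to 1.09, adjusted p = 0.820, limma). The mean log2 difference was -0.14 over all pairs and -0.24 without the 24 h pair (unadjusted p = 0.0375, adjusted p = 0.689, limma). A further probe-set of Tbl1x, 1434643_at, went the other way with a mean of 1.11-fold (0.853 to 1.46), and its largest difference was at 24 h, where the signal was 336.1 with T3 and 202.9 untreated. The dim 1434644_at stayed between 23.9 and 41.3 on the 8 arrays. The direction for Tbl1x differed between its probe-sets, and none of them passed the test.

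The brightest probe-set of Tbl1xr1 (1434839_s_at) had signals of 344.9, 328.3, 363.7 and 384.5 with T3 and 371.4, 342.3, 270.4 and 327.7 untreated. The mean ratio was 1.09-fold (0.891 to 1.33, adjusted p = 0.842, limma), with T3 below untreated at 6 and 16 h and above it at 24 and 48 h. Probe-set 1450739_at gave 52.5, 51.3, 83.6 and 50.4 with T3, against 57.9, 50.2, 40.8 and 40.5 untreated, and the T3 24 h array was the only one above 57.9. Probe-set 1455109_at gave the same small ratio in every pair, from 0.902 to 0.916, but its signal differed 3.11-fold between arrays, from 29.0 and 31.8 in the T3 and untreated cultures at 16 h up to 82.6 and 90.2 at 24 h. Over the 8 arrays the signals of 1455109_at and 1434839_s_at had a Pearson r of -0.22, given as a description. Probe-sets 1442312_at, 1422761_at and 1457186_at of Tbl1xr1 reached at most 12.7 and were not kept.

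GPS2 is a small subunit that binds both TBL1X and NCOR proteins. Its only probe-set, 1417796_at, had signals of 84.3, 58.2, 66.1 and 45.6 after 6, 16, 24 and 48 h of T3, against 74.1, 53.2, 48.9 and 44.9 in the untreated cultures. T3 was higher in 4 of 4 pairs, by 1.14, 1.09, 1.35 and 1.02-fold. The mean of 1.14-fold had a 95% interval of 0.904 to 1.45 and did not pass the test (log2 0.19 ± 0.15, SE; adjusted p = 0.820, limma).

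Ncoa1, or SRC-1, is the founding member of the p160 coactivators. Its brightest probe-set, 1418594_a_at, gave 317.5, 247.3, 338.9 and 132.6 with T3, against 375.2, 285, 295.9 and 157.2 untreated. T3 was lower at 6, 16 and 48 h (0.846, 0.868 and 0.844-fold) and higher at 24 h (1.15-fold), with a mean of 0.918-fold (0.754 to 1.12, adjusted p = 0.840, limma). Its mean log2 difference was -0.12 over all pairs and -0.23 without the 24 h pair (adjusted p = 0.730, limma). The second kept probe-set, 1434515_at, had 217.3, 171.4, 250.5 and 128.1 with T3 and 290.6, 171.8, 276.9 and 123.6 untreated, a mean of 0.915-fold (0.747 to 1.12). Both probe-sets had their lowest signals at 48 h in both groups. Probe-set 1443397_at stayed at or below 22.2 and was not kept.

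Ncoa2, or GRIP1 (chr1:13139105-13374227 in GRCm38.p6), had signals of 503.4, 347.1, 466.3 and 313.8 with T3 and 551.3, 406.2, 479.7 and 311.2 untreated on 1435233_at. The pairs lay close together at every time point and the mean ratio was 0.935-fold (0.800 to 1.09, adjusted p = 0.840, limma). Probe-set 1435234_at varied more, with 114.7, 45, 88 and 51.6 with T3 and 168.2, 86.7, 62.2 and 42 untreated. T3 was lower there at 6 and 16 h (0.682 and 0.519-fold) and higher at 24 and 48 h (1.42 and 1.23-fold), and a T3 effect that moved with the hours did not pass the test (unadjusted p = 0.147, adjusted p = 1, limma). Probe-sets 1446827_at and 1450458_at stayed at or below 23.9.

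Ncoa3, or ACTR (chr2:165992637-166073242), gave 78.5, 91.5, 77.2 and 99.9 with T3 and 71.5, 110.7, 49.7 and 91.4 untreated on 1422737_at. T3 was higher at 6, 24 and 48 h and lower at 16 h, with a mean of 1.11-fold (0.845 to 1.47, adjusted p = 0.851, limma). The untreated 24 h array was the lowest of the 8, and without that pair the mean log2 difference was -0.00. On 1448027_at the signals were 53.6, 77.6, 76.9 and 90.8 with T3 and 54.2, 89.2, 72.6 and 85.8 untreated, a mean of 0.991-fold (0.799 to 1.23). The T3 and untreated signals overlapped.

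**Figure D2:**
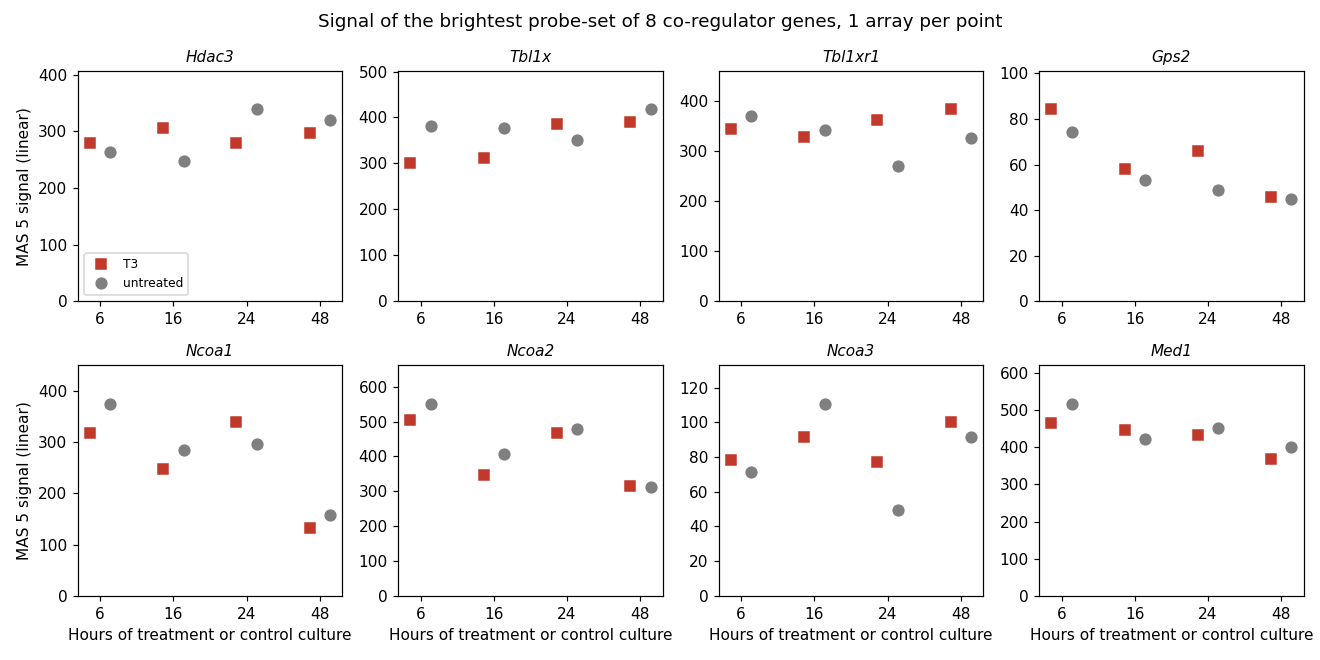
MAS 5 signal (y axis, linear, starting at 0) of the brightest probe-set of the 8 co-regulator genes against hours (x axis, 4 time points drawn at equal distances), with T3 as squares and untreated as circles, 1 array per point. In most pairs square and circle lie near each other. At 24 h they lie apart for Gps2, Tbl1xr1 and Ncoa3, the last at 77.2 with T3 and 49.7 untreated. Ncoa1 has its lowest points, 132.6 with T3 and 157.2 untreated, at 48 h.

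MED1 carries the LXXLL motifs by which Mediator meets liganded receptors. Its brightest probe-set, 1421907_at, was nearly level, at 464.6, 447.6, 432.4 and 368.7 with T3 and 517.2, 422.1, 451.9 and 401.8 untreated, a mean of 0.956-fold (0.819 to 1.12, adjusted p = 0.892, limma). The next, 1448708_at, gave 276.5, 283.4, 273.8 and 273.6 with T3 and 327.7, 303.9, 294 and 287.2 untreated. Here T3 was lower in 4 of 4 pairs, as it was for 6.82% of all probe-sets. The highest T3 signal, 283.4, lay just below the lowest untreated signal, 287.2. How many of all probe-sets split in this way was not counted. The mean of 0.914-fold (0.776 to 1.08) did not pass the test (adjusted p = 0.820, limma).

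Of the dimmer probe-sets of Med1, 1450402_at and 1421906_at had means in the other direction. Probe-set 1450402_at had signals of 82.9, 55.7, 26.3 and 54 with T3, against 60.6, 43.5, 10.9 and 32.5 untreated. T3 was higher in 4 of 4 pairs, by a mean of 1.63-fold (1.18 to 2.25), with an unadjusted p of 0.00872 and an adjusted p of 0.815 (limma). Probe-set 1421906_at gave 63.4, 32.7, 56.9 and 44.7 with T3 and 73.8, 32.5, 8.8 and 31.2 untreated, so that its mean of 1.68-fold (0.812 to 3.49, adjusted p = 0.815) had its widest pair at 24 h, where the untreated signal was 8.8. Without that pair the mean log2 difference was 0.10. Probe-set 1447450_at was lower with T3 in 4 of 4 pairs, at 22.4 to 38.1 with T3 and 24 to 45.4 untreated, and the groups overlapped. Thus the sign of the Med1 difference depended on the probe-set: of the 5 kept, 3 had a mean below 0 and 2 above, and the mean over the probe-sets was 0.21 on the log2 scale. Probe-sets 1453972_x_at and 1439408_a_at stayed at or below 14.4. The positions of the probe-sets within the transcripts were not used here.

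**Figure D3:**
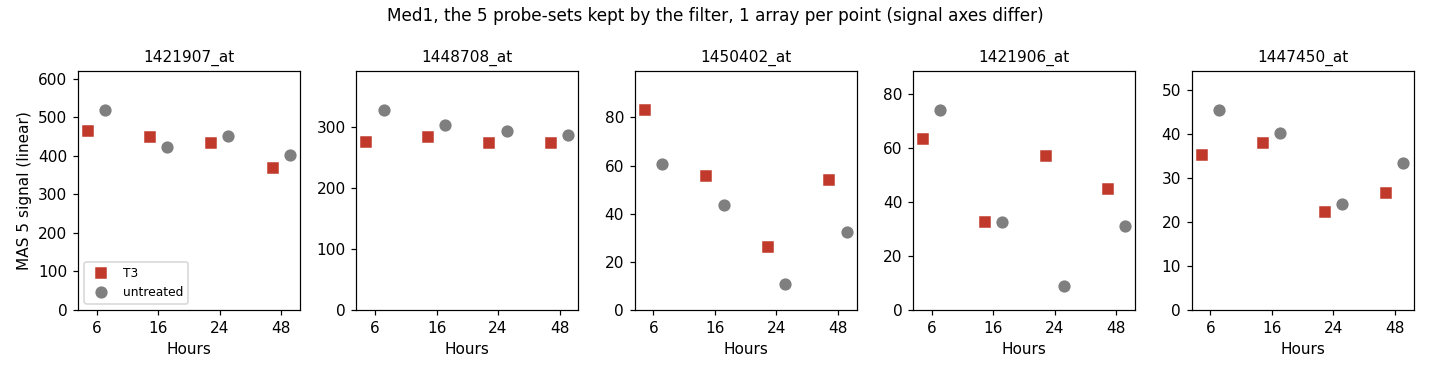
MAS 5 signal (y axes, linear, starting at 0, each with its own range) of the 5 kept Med1 probe-sets against hours (4 time points at equal distances), T3 as squares and untreated as circles, 1 array per point. In 1448708_at and 1447450_at squares lie below circles at every time point, in 1450402_at above, and the circle of 1421906_at at 24 h is at 8.8.

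Single pairs of arrays differed most at 24 h. Past 2-fold in either direction there were 0 member probe-sets at 6 h, 0 at 16 h, 3 at 24 h and 0 at 48 h, against 0.855%, 0.738%, 8.83% and 1.18% of all probe-sets at these times. The 3 were Med1 1421906_at (6.47-fold, T3 over untreated), Med1 1450402_at (2.41-fold) and Tbl1xr1 1450739_at (2.05-fold), all higher with T3. With 32 added to every signal, which holds down ratios of dim probe-sets, the log2 differences of the 3 were 1.12, 0.44 and 0.67, and 1 of them stayed past 2-fold. For the brightest probe-sets of the 8 genes the count was 0 at each time point. The untreated culture of this pair was the one with the high glial sums, and summed signals of 4 GABA neuron and 3 Purkinje cell genes were also lower with T3 there, at 97.8 and 282.9, against 673.8 and 1164.1 in the untreated culture. Whether that difference in marker signals has a part in the 24 h ratios of the co-regulators was not tested. In such mixed cultures fewer cells of a type and less RNA per cell cannot be told apart.

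With the hours of culture the signals of Gps2 and of 1 probe-set of Ncoa2 fell over the 8 arrays. In a fit on log2 hours that allowed for treatment, 0 member probe-sets rose and 2 fell, against 10.6% of all probe-sets rising and 8.56% falling. Gps2 fell by 0.26 on the log2 scale for each doubling of time (SE 0.08, adjusted p = 0.0483, limma), which is 0.836-fold per doubling. Ncoa2 1435234_at fell by 0.50 (SE 0.13, adjusted p = 0.0384), or 0.708-fold. This test counts both arrays of a time point although they come from 1 batch. When the time point was made a random block, the adjusted p was 0.206 for Gps2 and 0.193 for Ncoa2 1435234_at, and with 1 mean per time point 0.323 and 0.220, so neither call held. Gps2 also lost its call without the 6, 16 or 48 h pair (adjusted p = 0.747, 0.0748 and 0.342), and Ncoa2 1435234_at without the 6 or 48 h pair (0.759 and 0.297). Gps2 did not pass either with quantile normalization (0.0547), median centring (0.1) or linear hours (0.0934), and Ncoa1 1418594_a_at passed with median centring (0.0498), the 75th percentile filter (0.0472) and linear hours (0.0430).

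Ncoa1 had the steepest slope among the brightest probe-sets, -0.37 per doubling (SE 0.11, adjusted p = 0.0529), and Ncoa2 had -0.22 (adjusted p = 0.0768). Neither passed. Without the 24 h pair both did, at -0.42 (adjusted p = 0.0033) and -0.25 (adjusted p = 0.00949). With this pair left out 6 member probe-sets fell, both of Ncoa1, both of Ncoa2, that of Gps2 and Med1 1450402_at, and 1 rose, Ncoa3 1448027_at (0.23 per doubling, adjusted p = 0.0481). Over all probe-sets 23.8% fell and 19.4% rose without this pair. Leaving out the untreated 24 h array alone gave 4 falling and 1 rising member probe-sets, against 18.1% and 16.4% of all probe-sets. With all 8 arrays the slopes of the other brightest probe-sets were 0.07 for Hdac3, 0.09 for Tbl1x, -0.02 for Tbl1xr1, 0.06 for Ncoa3 and -0.11 for Med1, with adjusted p from 0.149 to 0.877. The SD of the log2 signal over the 8 arrays had a median of 0.16 for the brightest probe-sets of the 4 corepressor genes. For those of the 4 coactivator genes it was 0.34. Over all 19 member probe-sets, dim ones included, the median was 0.33, against 0.37 over all kept probe-sets.

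**Figure D4:**
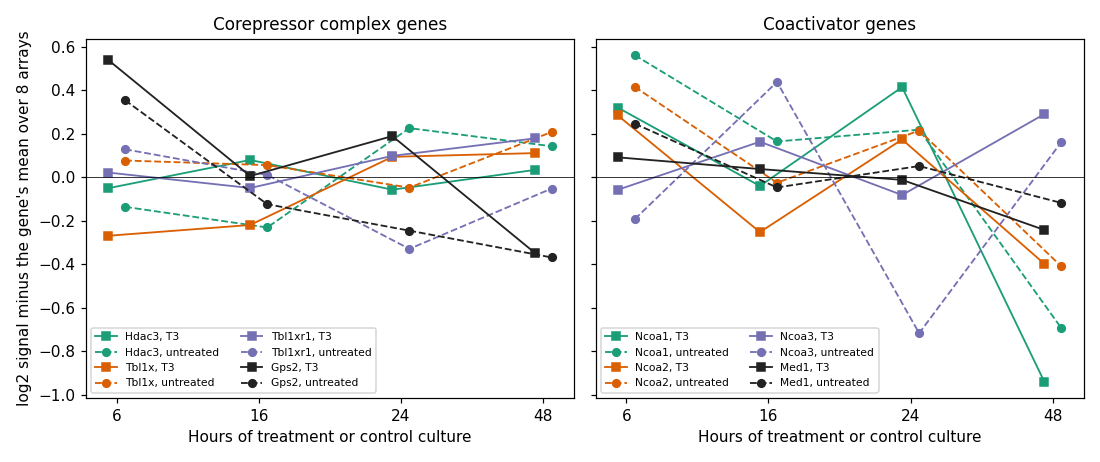
Log2 signal minus the mean of the gene over 8 arrays (y axis) against hours (x axis, 4 time points at equal distances) for the brightest probe-set of each gene, corepressor complex genes on the left and coactivator genes on the right, T3 as squares with solid lines and untreated as circles with dashed lines. Ncoa1 and Ncoa2 are above their mean at 6 and 24 h and lowest at 48 h in both groups, and Ncoa3 has its lowest point in the untreated 24 h culture.

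On many probe-sets of the array, and on some of the co-regulators, the 6 and 24 h cultures did not overlap with the 16 and 48 h cultures, a grouping noticed after the values had been seen. The lowest of the 4 arrays at 6 and 24 h was above the highest of the 4 at 16 and 48 h in 4 member probe-sets, against 15.1% of all probe-sets, and the reverse held in 2, against 14.2%. These 6 of 19 are near the shares over all probe-sets and are given as values only. The 4 were both of Ncoa1, Ncoa2 1435233_at and Tbl1xr1 1455109_at, and the 2 were both of Ncoa3. Ncoa2 1435233_at, for example, was at 466.3 to 551.3 at 6 and 24 h and at 311.2 to 406.2 at 16 and 48 h. The summed signal of 7 granule cell and neuron genes was split in the same way, at 4362.5 to 6426 at 6 and 24 h and 590.9 to 2456.4 at 16 and 48 h, and so was that of 3 Purkinje cell genes, at 282.9 to 1164.1 and 116.7 to 271.9. Taken singly, 5 of the 6 kept granule cell and neuron genes and 2 of the 3 Purkinje cell genes were split so. Atoh1 was not, at 32.8 with T3 at 24 h against 123 with T3 and 135.9 untreated at 16 h. Nor was Car8, at 84.2 against 179 and 161.2 in the same cultures. The part of these cells in the co-regulator levels was not tested.

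Within the group Ncoa1 and Ncoa2 ran most closely together over the 8 arrays (Pearson r = 0.92 on log2 signals), then Ncoa1 and Med1 (0.87) and Ncoa2 and Med1 (0.84). Gps2, whose promoter is shown with those of Ncoa1 and Med1, followed all 3 (0.76 with Ncoa1, 0.76 with Ncoa2 and 0.75 with Med1), and Ncoa3 ran opposite to Ncoa2 (-0.62). These are descriptions with no test, since the T3 and untreated arrays of a time point share a cell batch. Of all 10193 other genes compared, the 3 most like Ncoa1 were Son (r = 0.99), an RNA splicing cofactor, Trim33 (0.99), a ubiquitin ligase and chromatin reader, and Smarcad1 (0.99), a chromatin remodeller. The 3 most like Ncoa3 were Vti1a (0.99), a SNARE protein of vesicle fusion, Cdipt (0.97), the phosphatidylinositol synthase, and Ide (0.97), the insulin-degrading enzyme. These were picked as the highest of all genes compared.

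The receptors that recruit these proteins were measured alongside. Thra, the main thyroid hormone receptor gene of granule cells, had signals of 833.7, 555.7, 643.8 and 609.1 with T3, against 965.7, 561.6, 1173.8 and 574.3 untreated. The 24 h pair differed most, and the mean log2 difference was -0.25 (adjusted p = 0.816, limma) and -0.05 without that pair. Rxra, a heterodimer partner, rose with the hours by 0.39 per doubling (adjusted p = 0.0285), a call lost when the time point was a random block, and did not pass for T3 (0.27, adjusted p = 0.815, and 0.13 without the 24 h pair). Rxrb, also kept and at 262.8 to 343.7 over the 8 arrays, passed neither test. Its slope was 0.04 per doubling (adjusted p = 0.659, limma) and its mean T3 difference 0.10 (adjusted p = 0.851, limma). Thrb and Rxrg were below the filter.

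The other genes of the pathway also gave no call for T3. Of 17 other corepressor genes 14 were kept and 0 passed for T3. The largest mean log2 differences, none past the test, were 0.32 for the class IIa deacetylase Hdac5, -0.23 for the ligand-dependent corepressor Lcor and -0.12 for the scaffold Sin3a. Of 22 other coactivator genes all were kept and 0 passed, and Smarca4, the ATPase of BAF remodelling complexes, had the largest difference (-0.27), followed by its partner Smarcc1 (-0.26) and Ppargc1a (0.19). Of 32 other Mediator genes all were kept and 0 passed, with 0.52 for the head subunit Med18, -0.34 for the kinase Cdk19 and 0.25 for Med7. Several of these rested on the 24 h pair. Without it Smarca4 stood at 0.01, Smarcc1 at -0.04, Cdk19 at 0.00, Lcor at -0.07, Med18 at 0.27, Med7 at 0.11 and Hdac5 at 0.21, while Sin3a (-0.20) and Ppargc1a (0.19) did not come nearer to 0. Adjusted p over all pairs was at least 0.815 for each of these, and the list medians were -0.05, -0.04 and 0.01, against 0.01 over all probe-sets.

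With the hours, 3 of 14 other corepressor genes, 5 of 22 other coactivator genes and 2 of 32 other Mediator genes fell, and 0, 1 and 0 rose, against 8.56% of all probe-sets falling and 10.6% rising. Under the random block 0 genes passed in each of these 3 lists, and 0 passed with 1 mean per time point. The corepressor genes were Ctbp2 (-0.30 per doubling), the class I deacetylase Hdac2 (-0.28) and Lcor (-0.36). The coactivator genes were the acetyltransferases Crebbp (-0.23) and Kat2a (-0.30), Ncoa5 (-0.47), Ncoa6 (-0.31) and Brd8 (-0.38), while Ppargc1a, the coactivator of mitochondrial genes, rose (0.70). The Mediator genes were Med19 (-0.23) and Med26 (-0.30). Ppargc1a had signals of 104.8, 451.9, 328.8 and 414 with T3, against 73.4, 462.8, 288.1 and 386.5 untreated, so that both 6 h cultures lay below all others. Without the 24 h pair 6, 11 and 13 genes of the 3 lists fell, while the share of all probe-sets falling was 23.8%.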

How the data were processed

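RNA of 8 primary cultures was amplified in 1 linear round by the authors and hybridized to whole-genome mouse Affymetrix arrays, 1 per condition. The deposited values are linear signal intensities, 1 for each probe-set on each array, made by the authors with GCOS and MAS 5 (versions not given in the sources used here), and the mean without the highest and lowest 2% was near 100 on each array. Background correction and perfect-match weighting were fixed at that stage, and dim signals are the least certain. No detection calls were used here, and the 3′ to 5′ signal ratios were 1.69 to 2.55 for Actb and 1.61 to 2.95 for Gapdh. Precision is limited by the number of arrays.

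Of 45101 probe-sets 64 controls were left out. Signals under 1 were set to 1, log2 was taken, and probe-sets at or above the 60th percentile of mean log2 signal (4.95, a signal of about 31) were kept. Of the 45037, 34945 have 1 gene symbol, 932 several and 9160 none. A gene is given by its brightest kept probe-set, with its other probe-sets beside it, and levels of different probe-sets were not compared. The T3 effect was fitted with limma 3.58.1 in R 4.3.3 over 4 pairs with the time point as a block, the change with hours on log2 hours, allowing for treatment, and a T3 effect that moves with the hours on the 4 differences, each with a variance trend and Benjamini-Hochberg adjustment over all kept probe-sets (threshold 0.05). SE is the moderated standard error. The p-values measure spread over time points, not over replicate cultures. Ratios at 1 time point compare 1 array with 1 array and have no test.

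The pairing by time point comes from the methods, which name a shared cell batch. Deviations from the treatment mean correlated within pairs at 0.905, 0.713, 0.520 and 0.878 for 6, 16, 24 and 48 h. All 9 listed genes are named wherever a probe-set has the single symbol. From the other lists the genes that passed a test are named, or else the 3 with the largest mean T3 difference. Likeness was computed for the 2 members with the largest SD. The members and lists were chosen with earlier results of these data known.

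Alternatives were quantile normalization, median centring, 32 added to signals, no filter or one at the 75th percentile, no variance trend, no block, the time point as a random block, 1 mean per time point, linear hours, untreated arrays alone, a 1.6-fold threshold, other probe-sets or their mean, and each pair left out. Leaving out the untreated 24 h array was chosen after seeing the data. Fits were tested on simulated data first. Promoter windows came from RefSeq (GRCm38.p6). Figures were drawn with matplotlib 3.10.9 in Python 3.11.15.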

Additional observations from a re-analysis of the deposited data

Results flagged for a closer look

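The T3 to untreated ratio of Ncoa1 (1418594_a_at) at 24 h lay far from those of the other pairs. Its log2 was 0.196 at 24 h, against -0.24, -0.20 and -0.25 at 6, 16 and 48 h, and the gap to the nearest of these was 0.907 of the whole range, above the 95% critical value of Dixon's test for 4 values. It was the only such value among the 19 member probe-sets tested, and at a 95% critical value about 1 of 19 is the number that chance gives.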

How the results depend on the processing

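With 4 pairs and 1 culture per condition only large T3 differences can pass, and signals near the filter are the least certain. For T3, 0 member probe-sets passed under every alternative run, and over all probe-sets 0 passed except without the 24 h pair (0 to 2 over the pairs left out, Dbp and Kcnj13). Without the time point as a replicate block 0 probe-sets passed, and 76 had an unadjusted p under 0.05, against 985 with it. Of 155 T3 values for single members under alternatives 12 changed sign, none of them past the test. The cause was not tested. These were Hdac3 with median centring (-0.058), Tbl1x by 1434643_at (0.156), Tbl1xr1 by 1455109_at (-0.136), Ncoa3 by 1448027_at (-0.013), and Med1 by 1421906_at (0.750), by 1450402_at (0.703) and as the mean of its probe-sets (0.208). With pairs left out, sign changes were seen in Hdac3 (-0.102 to 0.096), Ncoa3 (-0.004 to 0.299), Ncoa2 1435234_at (-0.400 to 0.082) and Ncoa3 1448027_at (-0.045 to 0.050).

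Member probe-sets falling with the hours numbered 2 in the fit reported and 1 with quantile normalization, a filter at the 75th percentile or linear hours. They numbered 0 with no filter, the random block, 1 mean per time point or untreated arrays alone, 4 without the untreated 24 h array, and 0 to 6 with pairs left out. Those rising numbered 1 without that array and 0 to 1 with pairs left out. Over all probe-sets, those rising were 1010 with no filter, 316 with the random block, 0 with 1 mean per time point, 662 with linear hours, 0 in untreated arrays alone, 2948 without the untreated 24 h array and 0 to 3499 with pairs left out. Those falling were 623, 76, 0, 661, 0, 3260 and 0 to 4287 under the same settings, and 976 with the mean of the probe-sets of a gene. Fewer arrays or fewer genes were tested in some of these, and otherwise the cause was not tested. Of 207 slopes of single members 7 changed sign, for Tbl1x by 1434643_at (-0.115), Tbl1xr1 with median centring (0.007), and with pairs left out Tbl1xr1 (-0.090 to 0.066), Tbl1xr1 1450739_at (-0.134 to 0.018), Ncoa3 (-0.056 to 0.114), Med1 1450402_at (-0.910 to 0.010) and Med1 1421906_at (-0.797 to 0.190). Past 1.6-fold there were 0, 2, 4 and 1 member probe-sets at 6, 16, 24 and 48 h, against 3.36%, 3.34%, 21% and 4.25% of all probe-sets, and past 2-fold at 24 h there were 1 with 32 added and 0 with the mean of probe-sets.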
